A study of Mus musculus with 12 samples.

Results

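Genes of cholesterol synthesis were followed across the colon of wild-type mice and of Parp1-/- mice, which lack the ADP-ribosylating enzyme Parp1, with and without chemical colitis. The 8 genes listed for the pathway were Hmgcs1, Sqle, Fdft1, Idi1, Lss, Insig1, Srebf2 and Dhcr7. A gene was taken from the probe sets annotated to its symbol alone. This found 7 of the 8 among 21314 genes, each on 1 probe set. The probe set of Idi1, the isomerase of the isoprene units, is annotated to Idi1 and Gm13502 together, so Idi1 has no value here. The 7 comprise 5 enzymes of sterol synthesis and 2 regulators. None of them is a receptor for cholesterol uptake, and the uptake genes measured are given as a list of their own. The rule that picks the probe sets rests on the gene symbols and uses no measured value. The genes themselves were listed with earlier results of these data known.

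RNA of the whole washed colon was measured in 12 mice of 6 to 8 weeks, on 12 Affymetrix arrays with 1 mouse each. There were 4 groups of 3 mice: wild type on plain water, wild type given dextran sulfate sodium (DSS) at 4% over 7 days, Parp1-/- on plain water and Parp1-/- given the same DSS. DSS, taken in the drinking water, injures the lining of the colon and brings on colitis. The sources used here give no strain, no description of the Parp1 allele and no sex, and all mice shared a conventional facility screened for common mouse pathogens. The values are log2 values that were centred before deposit, so that each probe set has a median of 0 over all 12. A value therefore says how an array stands to the others for that gene, and levels of different genes cannot be ranked. Base 2 and larger values for more RNA were assumed, since neither is stated. In whole colon, fewer cells of a type and less RNA per cell cannot be told apart, and because of the centring no marker can be shown to be present or absent. With 3 arrays in each group, their number sets the precision.

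Cells build cholesterol from acetyl-CoA. Hmgcs1 acts near the entry of the pathway, later steps give isoprene units, Fdft1 joins these into squalene, Sqle oxidises squalene, Lss closes the rings to lanosterol, and a series of later enzymes ending with Dhcr7 and the reductase of the side chain gives cholesterol. Srebf2 encodes SREBP-2, the transcription factor that switches on these enzymes when membrane sterol is low. Insig1 encodes the membrane protein that holds the SREBP escort Scap in the endoplasmic reticulum when sterol is plentiful, and it is itself a target gene of SREBP. The colon lining is renewed from crypts throughout life, and its new membranes need sterol that is made in the cell or taken up.

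Before the genes are compared, 4 arrays have to be named, because they stood apart from the other 8: all 3 of the wild-type water group and wild-type DSS 1. The mean of 16 measured housekeeping genes of 20 listed lay between -1.70 and -0.99 on these 4 and between -0.0059 and 0.38 on the other 8. The median of 1056 receptor genes of smell and pheromones was 0.38 to 0.42 in these 4 and -0.12 to 0.05 in the others. The 10 colonocyte markers averaged between -1.53 and -0.76 on the 4 and between -0.083 and 0.43 on the rest. The 7 goblet cell markers averaged between -1.78 and -0.56 and between -0.053 and 0.30. Smooth muscle markers (8 of 8 measured) averaged 3.53 and 3.44 in Parp1-/- water 2 and 3, 3.49 in the first Parp1-/- mouse on DSS, and -0.66 to 0.08 elsewhere. Parp1 itself was at -0.41, 1.15 and 0.53 in the wild-type mice on water and at 0.0094, 0.51 and 0.77 in those on DSS, and between -0.22 and 0.026 in the 6 Parp1-/- mice. In the values as deposited, wild-type water 1 thus lay below all 6 Parp1-/- arrays, which goes against its label, and wild-type DSS 1 lay among them. The housekeeping mean was -1.70 and -0.99 on these 2 arrays and 0.018 to 0.24 on the Parp1-/- arrays. The part of that array-wide shift in their Parp1 values was not tested. Whether the probes lie in the altered piece of the gene is not given. Each direction drawn from wild-type water rests on these labels and on arrays that stand apart.

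Across the 4 groups, Hmgcs1 and Insig1 had the widest spread of the 7 genes. Hmgcs1, the enzyme at the entry of the pathway, was at -3.36, -2.44 and -2.15 in wild-type water and at -1.42, -0.30 and 0.48 in wild-type DSS. It was at 0.23, 0.52 and 0.94 in Parp1-/- mice on water and at 0.45, -0.11 and 0.11 in those on DSS. All wild-type water mice lay below every other mouse, wild-type DSS 1 lay next, and the Parp1-/- groups overlapped each other. Insig1, the sterol-responsive brake, was at -2.50, -1.94 and -2.37 in wild-type water and at -1.68, -0.54 and 0.22 in wild-type DSS. In Parp1-/- mice it was at 0.35, -0.053 and 0.45 on water and at 0.34, 0.053 and 0.10 on DSS. Its order of arrays was much like that of Hmgcs1: the same 4 arrays lay below the other 8.

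Fdft1, which makes squalene, was at -1.75, -1.57 and -1.71 in wild-type water and at -0.81, -0.17 and 0.46 in wild-type DSS. It was at 0.051, 0.22 and 0.24 in Parp1-/- mice on water and at 0.55, -0.051 and 0.96 with DSS. The wild-type water mice were close together and below all others, with an SD of 0.09, while the SD in wild-type DSS was 0.63. Dhcr7, the last reductase of the sterol ring, was at -0.58, -0.88 and -1.18 in wild-type water and at -0.41, -0.32 and 0.40 in wild-type DSS. It was at 0.11, 0.30 and 0.023 in Parp1-/- mice on water and at 0.70, -0.023 and 0.23 with DSS. Dhcr7 kept the same order of groups as Fdft1, over a narrower range of 1.88 against 2.71.

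Lss, the ring-closing cyclase, was at -0.72, -0.90 and -0.34 in wild-type water and at -0.48, -0.42 and 0.75 in wild-type DSS. In Parp1-/- mice it was at -0.0066, 0.0066 and 0.26 on water and at 0.58, 0.16 and 0.30 on DSS. Wild-type DSS overlapped wild-type water here. Srebf2, the regulator, was at -1.55, -0.67 and -1.07 in wild-type water and at -2.05, -0.62 and 0.67 in wild-type DSS, so its lowest array was wild-type DSS 1, and its highest was in the same group. It was at 0.00078, 0.26 and 0.16 in Parp1-/- mice on water and at 0.61, -0.00078 and 0.20 with DSS. Sqle, the squalene epoxidase, was at -1.48, -0.29 and 0.65 in wild-type water and at -0.91, -0.0081 and 0.17 in wild-type DSS. It was at 0.063, 0.0056 and 0.62 in Parp1-/- mice on water and at -0.0056, -0.59 and 0.39 with DSS. Both its lowest and its highest array were in wild-type water, so its groups overlapped throughout.

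**Figure D1:**
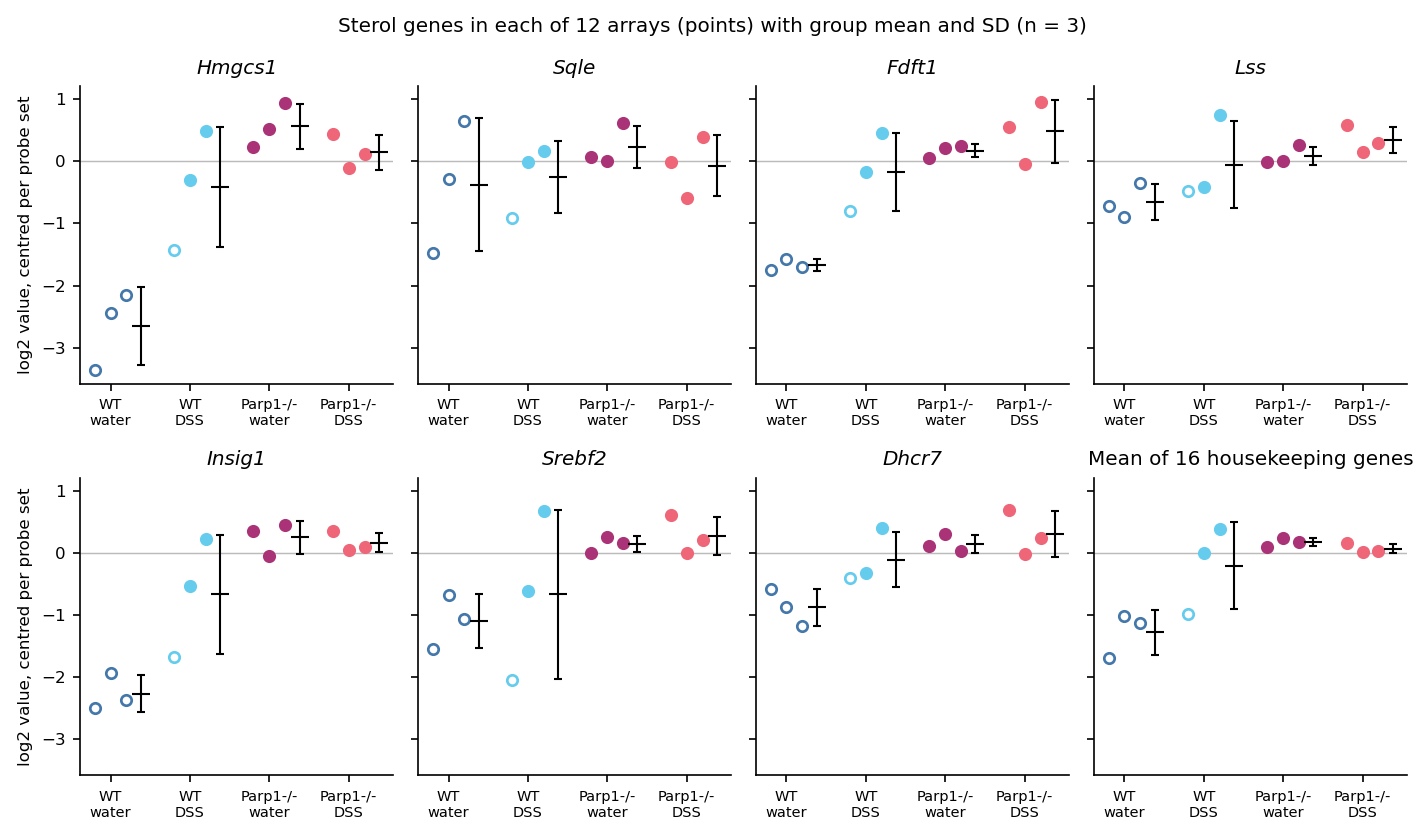
Log2 value, centred per probe set (y axis), of each of the 7 sterol genes and of the mean of 16 housekeeping genes in each array, by group (x axis); points are single arrays, open points the 4 arrays that stand apart, and bars the group mean with its SD (n = 3). Hmgcs1 and Insig1 reach lowest in wild-type water, at -3.36 and -2.50, while Sqle spans -1.48 to 0.65 within that group.

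The promoters of Hmgcs1 and Insig1 are shown because these genes had the largest differences below, and that of Srebf2 because it encodes the regulator of the others. The windows are RefSeq sequences of build GRCm38.p6, from 250 bases before to 50 after the start, and 6 of the 8 genes had at least 1 window. Capitals mark matches on either strand to TCACNCCAC (a sterol regulatory element), CCAAT (NF-Y), GGGCGG (Sp1) or CACGTG (E-box), motifs that do not overlap one another in these windows.
Hmgcs1, chr13:119690101-119690400, + strand: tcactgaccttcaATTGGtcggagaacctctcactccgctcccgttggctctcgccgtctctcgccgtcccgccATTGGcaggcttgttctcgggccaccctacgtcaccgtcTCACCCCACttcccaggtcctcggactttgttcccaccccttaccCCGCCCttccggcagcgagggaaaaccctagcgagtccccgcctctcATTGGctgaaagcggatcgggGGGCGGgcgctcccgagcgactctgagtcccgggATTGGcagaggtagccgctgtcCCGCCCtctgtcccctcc
Insig1, chr5:28071162-28071461, + strand: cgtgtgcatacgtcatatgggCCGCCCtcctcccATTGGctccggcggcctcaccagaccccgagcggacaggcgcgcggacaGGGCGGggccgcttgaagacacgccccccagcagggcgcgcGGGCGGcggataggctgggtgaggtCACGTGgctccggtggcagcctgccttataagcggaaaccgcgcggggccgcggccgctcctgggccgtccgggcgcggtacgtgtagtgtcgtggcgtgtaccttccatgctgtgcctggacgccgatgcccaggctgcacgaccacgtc
Srebf2, chr15:82147019-82147318, + strand: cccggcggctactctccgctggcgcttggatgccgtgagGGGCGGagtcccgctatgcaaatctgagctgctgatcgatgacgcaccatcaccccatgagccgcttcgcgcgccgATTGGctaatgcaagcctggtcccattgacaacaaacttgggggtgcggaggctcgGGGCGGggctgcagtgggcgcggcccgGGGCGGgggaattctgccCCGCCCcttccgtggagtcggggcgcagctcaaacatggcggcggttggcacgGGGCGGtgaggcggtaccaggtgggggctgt
Of these motifs, TCACNCCAC was found in 1 of the 6 genes, in Hmgcs1 with its first base at -137 from the start. That is 1 of their 8 windows, against 1.24% of all 32851 windows. CCAAT was found in all 6 genes, in 6 of their 8 windows, and in 37.4% of all windows. GGGCGG was in all 6 genes, in 7 of their 8 windows, and in 35.7% of all windows. CACGTG was in 2 of the 6 genes, Insig1 and Dhcr7, in 2 of their 8 windows, and in 7.15% of all windows. A match describes the letters of the window and says nothing of binding, which was not measured. Sqle and Fdft1 had no window in the table.

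**Figure D2:**
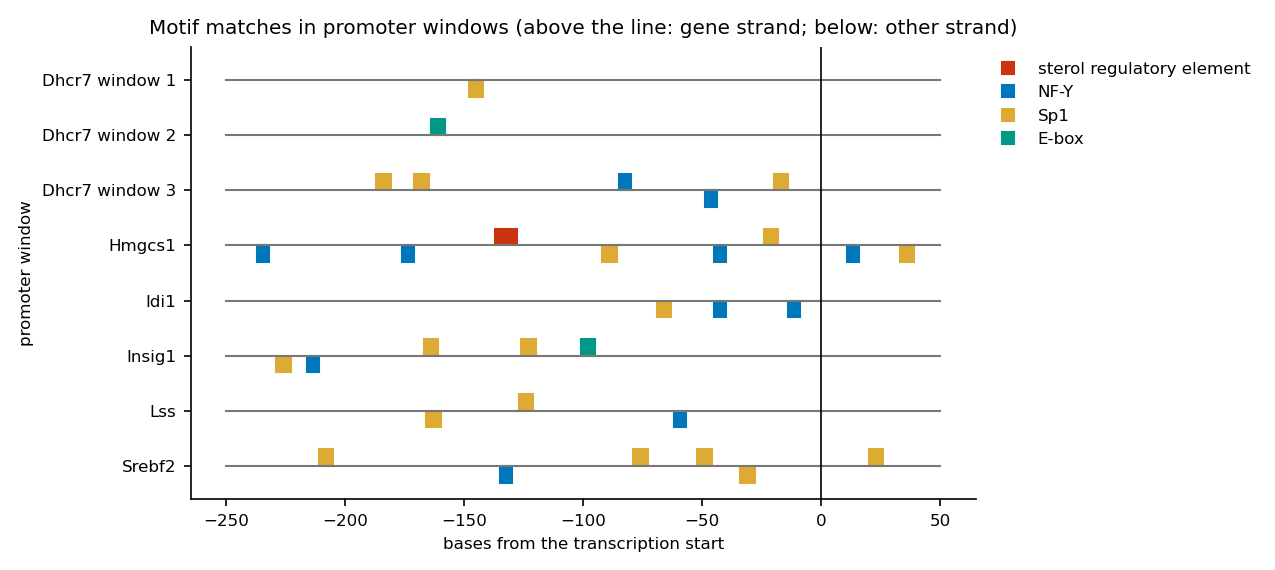
Positions of the 4 motifs in the 8 promoter windows of 6 genes (y axis), in bases from the transcription start (x axis); boxes above a line match the gene's strand and boxes below it the other strand. Among these windows only that of Hmgcs1 holds an exact match to TCACNCCAC, the sterol regulatory element, at -137, beside matches to NF-Y and Sp1. Near matches were not searched for.

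In wild-type mice DSS was compared with water to ask how the injured colon differs from the resting one. Hmgcs1 rose by 2.24 ± 0.44 on the log2 scale (SE, 3 mice a group), and limma gave an adjusted p of 0.0077. Insig1 rose by 1.60 ± 0.38 (adjusted p = 0.019, limma) and Fdft1 by 1.505 ± 0.31 (adjusted p = 0.00938, limma). In all 3 genes every DSS mouse lay above every water mouse. Thus 3 of 7 genes were called higher and 0 lower, where 8.89% of all genes were called higher and 4.16% lower. In 4 of 7 the groups did not overlap, all higher, against 11.4% of all genes that were higher and 12.2% that were lower without overlap. All 7 differences were above 0, as were 45.8% of all genes.

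The other 4 genes were not called. Dhcr7 differed by 0.77 ± 0.26 (adjusted p = 0.0724, limma), without overlap of the groups. Lss differed by 0.60 ± 0.30, Srebf2 by 0.43 ± 0.52 and Sqle by 0.13 ± 0.48. The 95% interval of Sqle, -0.93 to 1.18, leaves room for a change in either direction. The median of the 7 genes was 0.77, and that of all genes -0.05. Beside this, 8 of 16 housekeeping genes were called higher, and the median of the 16 was 1.13. The colonocyte list went from a mean of -1.47 to -0.17 and the goblet list from -1.62 to -0.14. Neutrophil and monocyte markers (6 of 6 measured) went from -0.52 to 1.27, with every DSS array above every water array. The part of these shifts in the sterol genes was not tested.

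Measured against the housekeeping mean of the same array, Hmgcs1 was still higher by 1.16 ± 0.30 (adjusted p = 0.00684, limma). Insig1, at 0.52, and Fdft1, at 0.43, were not called on that scale. Lss, Srebf2 and Dhcr7 turned to -0.47, -0.65 and -0.31, and Sqle to -0.95, called lower there with a limma adjusted p of 0.0372. This scale moves the median of all genes to -1.13, so a negative value on it is common.

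The calls for all 3 genes were lost after quantile normalization, where Hmgcs1 was at 1.27, Insig1 at 0.63 and Fdft1 at 0.75, and when only the 6 wild-type arrays were fitted. They were also lost with the median of the smell receptors as a covariate, where Hmgcs1 was at 1.08, Insig1 at 0.60 and Fdft1 at 0.80, and Srebf2, at -1.07, was called lower. Over all genes quantile normalization called 218 higher and 14 lower, against 1894 and 887. Without wild-type DSS 1, 5 genes were called: Hmgcs1 at 2.75, Insig1 at 2.11, Fdft1 at 1.82, Srebf2 at 1.12 and Dhcr7 at 0.92. That fit called 4191 of all genes higher and 2674 lower, against 1894 and 887 with all 12 arrays. Insig1 was not called without wild-type water 1, wild-type water 3 or wild-type DSS 2, with values of 1.49, 1.55 and 1.54.

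**Figure D3:**
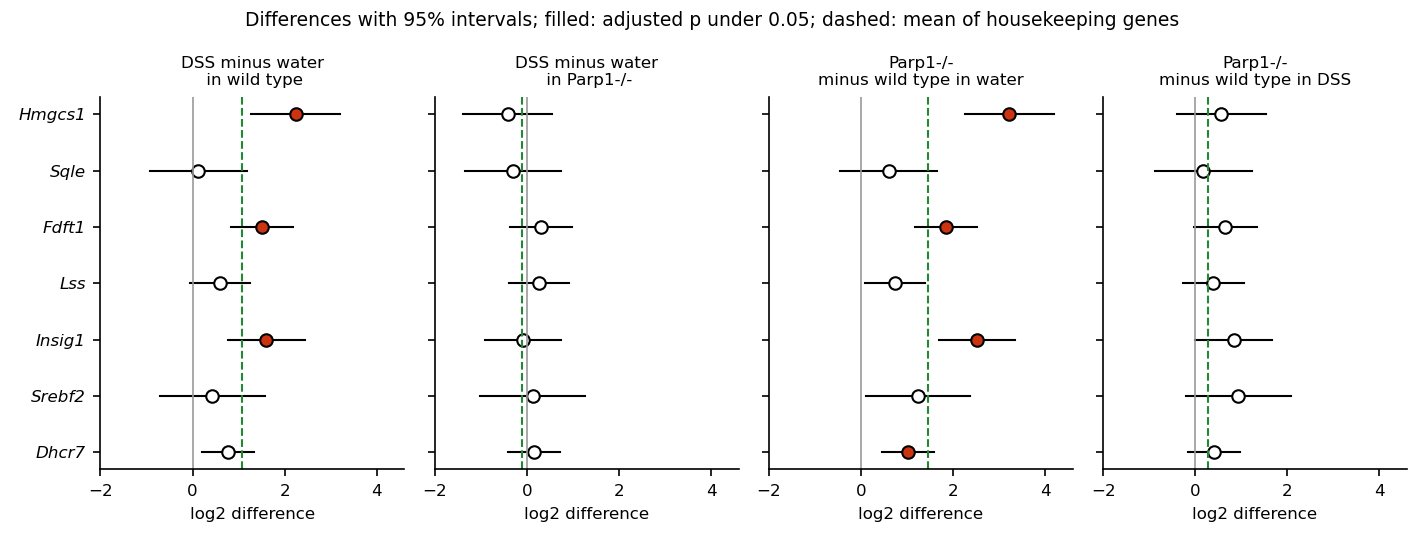
Log2 difference (x axis) of each gene (y axis) in 4 comparisons, with 95% intervals of the limma model (n = 3 mice per group); filled points have an adjusted p under 0.05, and the dashed line is the mean difference of 16 housekeeping genes. Filled points appear only in the panels that include wild-type water, with Hmgcs1 farthest right at 2.24 and 3.22.

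Of the other sterol synthesis enzymes, 2 of 12 measured rose with DSS in wild type and 0 fell, where 8.89% of all genes were called higher and 4.16% lower. Nsdhl, which removes carbon from the sterol ring, rose by 1.53 ± 0.40 and Sc5d, the lathosterol desaturase, by 1.39 ± 0.39. Of 8 genes that control SREBP, Mbtps2, the protease that makes the second cut in SREBP, rose by 1.13 ± 0.34. Of 7 genes of the isoprenoid branch, Nus1, a subunit of the enzyme for dolichol synthesis, rose by 1.75 ± 0.52. Of 9 genes of efflux, esterification and oxidation, Cyp27a1, the sterol 27-hydroxylase, rose by 2.13 ± 0.50. None of 9 uptake and transport genes was called. The smallest p there were those of Npc1l1, the uptake channel of the gut brush border, at 0.55 ± 0.17, and of Gramd1b, a carrier of sterol to the endoplasmic reticulum, at 0.87 ± 0.35. In all, 5 of 45 measured genes of these lists were called, all higher, with a median difference of 0.34, a share close to that of all genes called higher. None of the 5 was called after quantile normalization, nor was any without wild-type water 1 or wild-type DSS 2. Without wild-type DSS 3 the count was 1, and without wild-type DSS 1 it was 17, all higher. The fit without wild-type DSS 1 called 4191 of all genes higher and 2674 lower, against 1894 and 887 with all arrays. The count of pathway genes was 2 without wild-type water 2 and without any single Parp1-/- array.

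In Parp1-/- mice none of the 7 genes was called between DSS and water, in a comparison where 0.00938% of all genes were called higher and 0% lower. None of the 7 had an unadjusted p under 0.05 in limma, and none was called under any alternative run, including a fit without the 4 arrays that stand apart. Hmgcs1 differed by -0.41 ± 0.44 (SE, 3 mice a group), Sqle by -0.30 ± 0.48 and Insig1 by -0.08 ± 0.38. Fdft1 differed by 0.31 ± 0.31, Lss by 0.26 ± 0.30, Dhcr7 by 0.16 ± 0.26 and Srebf2 by 0.13 ± 0.52. The groups overlapped in all 7, where 7.82% of all genes were higher and 4.70% lower without overlap. Of the 7 differences 4 were above 0, as were 53.1% of all genes. The 95% interval of Hmgcs1 ran from -1.38 to 0.55 and that of Insig1 from -0.91 to 0.75. In wild type the intervals were 1.27 to 3.21 and 0.77 to 2.43. The test of the difference between these responses, given below, called Hmgcs1 and not Insig1. The mean of the housekeeping genes differed by 1.08 between DSS and water in wild type and by -0.11 in Parp1-/- mice.

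Neutrophil and monocyte markers went from a mean of -0.92 to 0.61 here, and their part was not tested. Smooth muscle markers were high in 2 of the water mice and 1 of the DSS mice, as given above. The mean of the 7 sterol genes was 0.18 and 0.38 in those water mice and 0.46 in that DSS mouse, against 0.11 in the remaining water mouse and -0.08 and 0.33 in the remaining DSS mice. The part of the muscle content in these values was not tested. Of the 45 other pathway genes 0 were called and 1 had an unadjusted p under 0.05, namely Abcg5, a subunit of a sterol exporter of the gut, at 0.65 ± 0.23. Cyp27a1 was at 0.94 ± 0.50 and Nus1 at -0.71 ± 0.52, each without overlap of the groups and neither called. Lbr, a sterol reductase of the nuclear envelope, was at -0.85 and Tm7sf2, which does the same reaction, at -0.24. Npc1l1 was at 0.25 and Stard4, a cytosolic sterol carrier, at -0.61. Pdss2, of coenzyme Q synthesis, was at -0.52, and Erlin1 and Erlin2, proteins of the endoplasmic reticulum membrane, at 0.32 and 0.31.

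The genotypes were compared on water to ask how the resting colon differs between them. Hmgcs1 was 3.22 ± 0.44 higher in the Parp1-/- colon on the log2 scale (SE, 3 mice a group), and limma gave an adjusted p of 0.000709. Of 21314 genes it had the difference of rank 15 from the highest. Insig1 was higher by 2.52 ± 0.38 (adjusted p = 0.00121, limma), Fdft1 by 1.85 ± 0.31 (adjusted p = 0.00207, limma) and Dhcr7 by 1.02 ± 0.26 (adjusted p = 0.0143, limma). Thus 4 of 7 genes were called higher and 0 lower, where 17.9% of all genes were called higher and 13.7% lower. The groups did not overlap in 6 of 7, all higher, against 26.2% of all genes that were higher and 29.2% that were lower without overlap. All 7 differences were above 0, as were 46.5% of all genes.

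Srebf2, at 1.24 ± 0.52 (adjusted p = 0.0853, limma), and Lss, at 0.74 ± 0.30 (adjusted p = 0.0756, limma), missed the threshold, although their groups did not overlap. Sqle differed by 0.60 ± 0.48 with overlapping groups. The median of the 7 was 1.24, and that of all genes -0.07. Beside this, 12 of the 16 housekeeping genes were called higher, with a median of 1.57, which lies above the differences of Dhcr7, Srebf2, Lss and Sqle. The colonocyte list had a mean of -1.47 in wild-type water and 0.13 in Parp1-/- water, and the goblet list -1.62 and 0.17. Smooth muscle markers had means of -0.37 and 2.17, the latter from high values in Parp1-/- water 2 and 3. The part of these shifts in the sterol genes was not tested.

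Against the housekeeping mean of each array, Hmgcs1 and Insig1 stayed higher, by 1.76 ± 0.30 (adjusted p = 0.000525, limma) and 1.06 ± 0.29 (adjusted p = 0.00364, limma), on a scale that moves the median of all genes to -1.53. Hmgcs1 minus the housekeeping mean was -1.66, -1.42 and -1.03 in wild-type water and 0.13, 0.28 and 0.76 in Parp1-/- water. Insig1 minus it was -0.80, -0.91 and -1.25 in wild-type water and 0.25, -0.30 and 0.27 in Parp1-/- water. In both genes the groups stayed apart on this scale. Fdft1 came to 0.39 and was no longer called. Dhcr7, Srebf2, Lss and Sqle turned to -0.43, -0.22, -0.72 and -0.85, and none of these was called.

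After quantile normalization Hmgcs1, Insig1 and Fdft1 remained called, at 2.17, 1.53 and 1.07, and Dhcr7, at 0.71, was not. Over all genes that setting called 1773 higher and 446 lower, against 3813 and 2912. With the median of the smell receptors as a covariate none of the 7 was called, with Hmgcs1 at 1.27 and Insig1 at 0.83. That covariate does not overlap between wild-type water and Parp1-/- water, so it cannot be told apart from the genotype there. Dhcr7 was not called without Parp1-/- water 2, at 0.95. Lss and Srebf2 were called too, which makes 6 genes, in each fit that left out either DSS 1 or DSS 3 of the wild type. More of all genes were called in those fits as well. The counts were 4960 higher and 4424 lower with DSS 1 left out, and 4563 and 3488 with DSS 3 left out. With all 12 arrays they were 3813 and 2912.

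**Figure D4:**
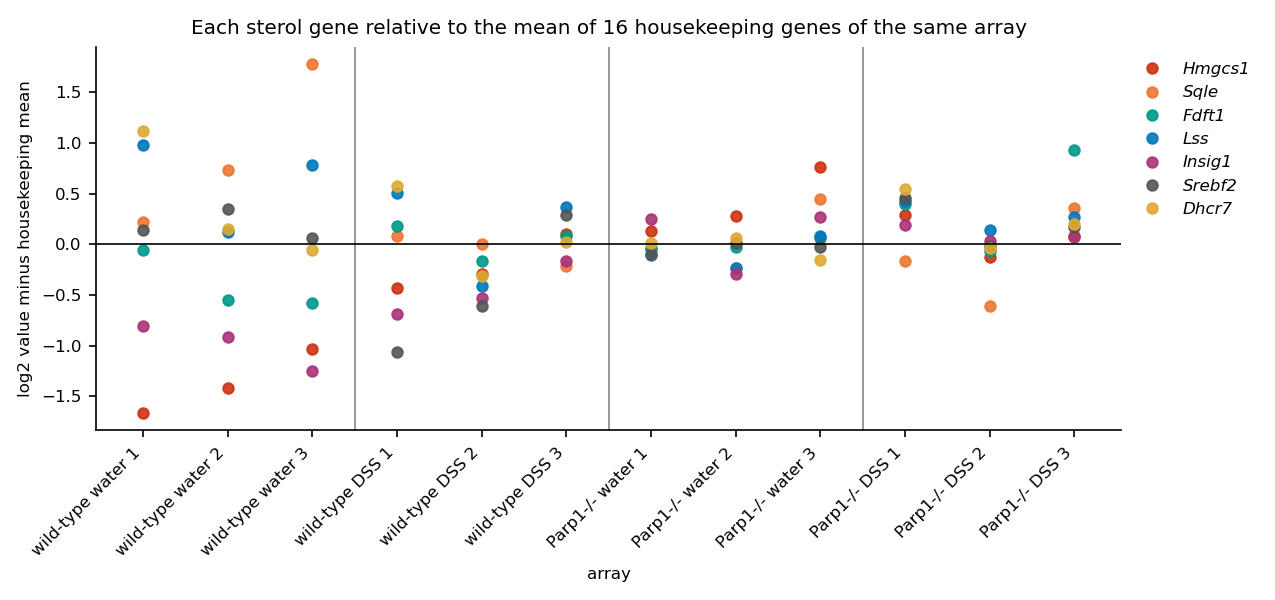
Log2 value of each sterol gene minus the mean of 16 housekeeping genes of the same array (y axis), for the 12 arrays (x axis); each colour is a gene and vertical lines part the groups. On plain water in wild type Hmgcs1 lies at -1.66 to -1.03 and Insig1 at -1.25 to -0.80, while Sqle lies at 0.22 to 1.77.

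Among the other synthesis enzymes 6 of 12 were higher in Parp1-/- mice on water and 0 lower, where 17.9% of all genes were called higher and 13.7% lower. They included Nsdhl at 2.001 ± 0.40, Sc5d at 1.77 ± 0.39, the sterol methyl oxidase Msmo1 at 1.58 ± 0.45 and the lanosterol demethylase Cyp51 at 1.41 ± 0.37. Of 9 uptake and transport genes 4 were higher: Stard4 at 1.71 ± 0.44, the lysosomal lipase Lipa at 1.68 ± 0.44, the lipoprotein receptor Lrp1 at 1.65 ± 0.43 and Gramd1b at 1.17 ± 0.35. Of 8 SREBP control genes 4 were higher: the proteases Mbtps1 at 2.07 ± 0.45 and Mbtps2 at 1.28 ± 0.34, Erlin1 at 1.91 ± 0.41 and the ubiquitin ligase Rnf139 at 1.19 ± 0.40. Of 7 isoprenoid branch genes 3 were higher: Nus1 at 2.98 ± 0.52, the geranylgeranyl diphosphate synthase Ggps1 at 1.30 ± 0.42 and Pdss2 at 1.17 ± 0.33.

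Of 9 genes of efflux, esterification and oxidation 1 was higher, Cyp27a1 at 2.09 ± 0.50. The median of that list was 0.07, against 1.17 for uptake and transport and 0.66 for the synthesis enzymes. This difference between lists was not tested. In all 18 of 45 were called, all higher, with a median of 0.89. Relative to the housekeeping mean the direction turned, with 20 called and 19 of these lower. That scale called 502 of all genes higher and 16159 lower, so the turn is not particular to these lists. The count of pathway genes was 9 after quantile normalization and 1 (lower) with the receptor covariate. It was 11 without wild-type water 1, 8 without Parp1-/- water 2 and 7 without Parp1-/- water 3. In each of these settings fewer of all genes were called as well, against 3813 higher and 2912 lower before. Both comparisons above that include wild-type water use the same 3 arrays of that group, so their values are not independent.

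**Figure D5:**
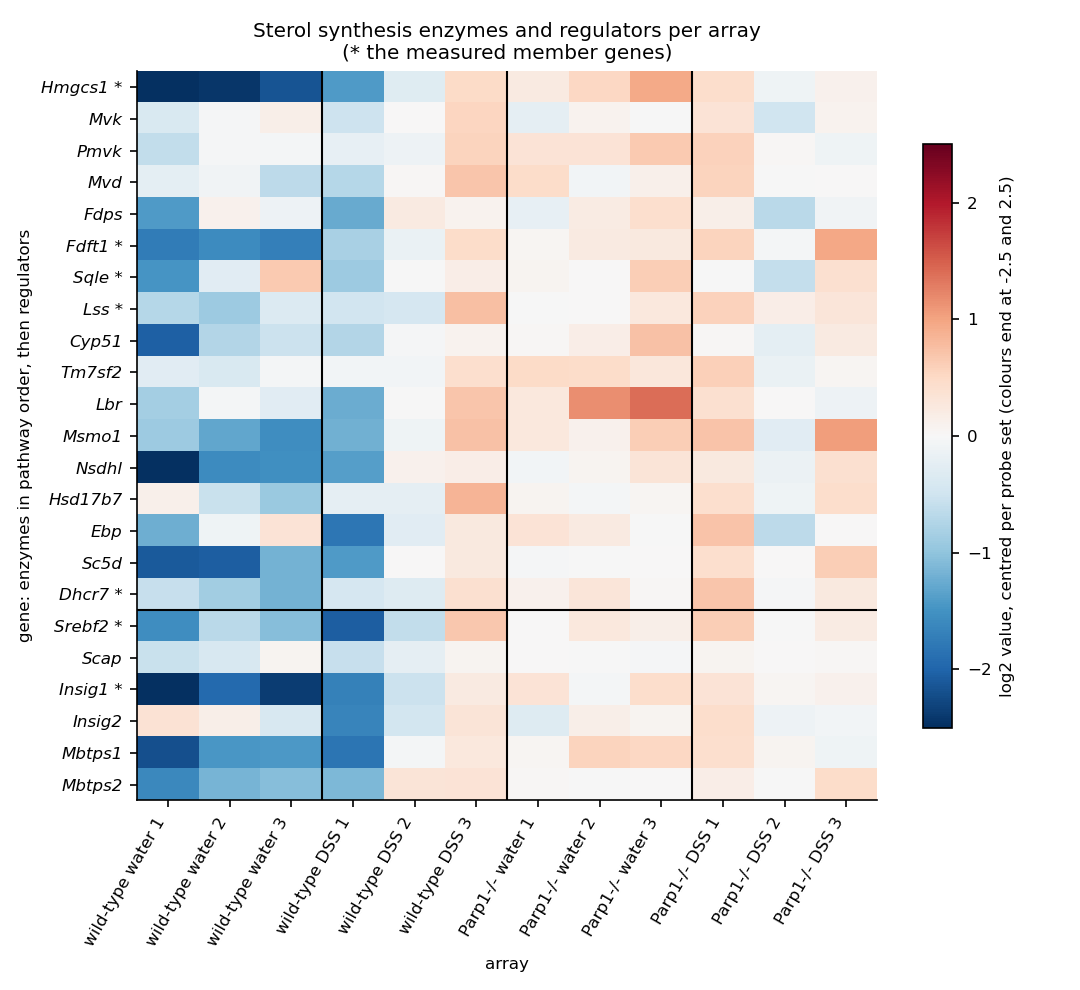
Log2 value, centred per probe set (colour), of sterol synthesis enzymes in pathway order and of regulators (y axis; * marks the 7 genes described) in the 12 arrays (x axis), with black lines between groups. The darkest cells of Hmgcs1, Insig1 and Nsdhl are in wild-type water 1. In the Parp1-/- columns Lbr reaches 1.40 and Hmgcs1 0.94 on water, and Msmo1 reaches 1.05 and Fdft1 0.96 on DSS.

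Under DSS the genotypes were compared to ask whether the injured colon differs without Parp1. None of the 7 genes was called, in a comparison where 0% of all genes were called in either direction. Limma left 593 genes, among them Insig1, at an unadjusted p under 0.05. All 7 were above 0: Srebf2 at 0.94 ± 0.52 (SE, 3 mice a group), Insig1 at 0.83 ± 0.38, Fdft1 at 0.66 ± 0.31, Hmgcs1 at 0.56 ± 0.44, Dhcr7 at 0.41 ± 0.26, Lss at 0.40 ± 0.30 and Sqle at 0.18 ± 0.48. The groups overlapped in all 7, where 2.04% of all genes were higher and 4.52% lower without overlap. Of all genes, 50.4% were above 0.

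Wild-type DSS 1 was the lowest array of its group in all 7 genes. Without it the differences shrank to 0.25 for Srebf2, 0.33 for Insig1, 0.34 for Fdft1, 0.055 for Hmgcs1, 0.26 for Dhcr7 and 0.18 for Lss, and Sqle turned to -0.15. Without wild-type DSS 3 they grew to 1.60 for Srebf2, 1.28 for Insig1, 0.97 for Fdft1, 1.01 for Hmgcs1, 0.67 for Dhcr7 and 0.80 for Lss, and none was called. Of the 45 other pathway genes 0 were called and 3 had an unadjusted p under 0.05 in limma: Erlin1 at 1.13 ± 0.41, the lysosomal cholesterol exporter Npc1 at 0.58 ± 0.22 and Abcg5 at 0.54 ± 0.23. Cyp27a1 was at 0.90, Lipa at 0.86, Sc5d at 0.74, Msmo1 at 0.69 and Insig2, a relative of Insig1, at 0.68. Dhdds, the partner of Nus1, was at 0.72 and Fntb, a farnesyltransferase subunit, at 0.68. Only a fit with array weights called sterol genes here, 5 of the 7 and 17 of the 45, all higher. That fit called 3516 of all genes higher and 2668 lower, against 0 without weights. The estimate of those weights stopped before it converged.

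The DSS response of Hmgcs1 differed between the genotypes. The Parp1-/- response minus the wild-type response was -2.65 ± 0.62 (SE, 3 mice a group), and limma gave an adjusted p of 0.0497. Thus 1 of 7 genes was called, lower, where 2.33% of all genes were called lower and 0.216% higher. Insig1 differed by -1.68 ± 0.54 (adjusted p = 0.137, limma) and Fdft1 by -1.19 ± 0.44 (adjusted p = 0.192, limma). Dhcr7 was at -0.61, Sqle at -0.42, Lss at -0.35 and Srebf2 at -0.30. All 7 were below 0, while 53.6% of all genes were above 0 with a median of 0.05. The mean over the housekeeping genes was -1.18 in the same contrast, and 1 of 16 was called lower.

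The call of Hmgcs1 was marginal. It was lost in 11 of the 12 fits that leave out 1 array, with adjusted p of limma from 0.0586 to 0.147, and kept without wild-type DSS 1, at -3.16. Without wild-type DSS 1, Insig1 and Fdft1 were called as well. It was also lost after quantile normalization, at -1.75, with the receptor covariate, at -1.34, and with trend and robust options, at an adjusted p of 0.0873. Against the housekeeping mean it stayed called, at -1.47 (adjusted p = 0.0422, limma). None of the 45 other pathway genes was called, and 5 had an unadjusted p under 0.05 in limma. They were Nus1 at -2.46 ± 0.73, Nsdhl at -1.47 ± 0.57, Mbtps1 at -1.41 ± 0.64, Cyp51 at -1.18 ± 0.53 and the sterol exporter subunit Abcg8 at 0.60 ± 0.25. Lrp1 was at -1.13, Pdss2 at -0.98, Mbtps2 at -0.92, Gramd1b at -0.77 and Abcg5 at 0.56. Without wild-type DSS 1, 8 of the 45 were called, all lower. That fit, which also called Insig1 and Fdft1, called 670 of all genes higher and 2508 lower, against 46 and 496.

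The 7 genes varied together across arrays to a degree that depends on the 4 arrays that stand apart. Over the 12 arrays the Pearson correlation of the 21 pairs of genes ranged from 0.19 to 0.97 with a median of 0.83, and Hmgcs1 with Insig1 was the highest. Over the other 8 arrays it ranged from 0.11 to 0.94 with a median of 0.63, and Lss with Srebf2 was the highest. After the housekeeping mean of each array was subtracted, the 21 pairs ranged from -0.63 to 0.85 with a median of 0.02, and 11 were above 0. Hmgcs1 with Insig1 was then the highest, followed by Lss with Dhcr7 at 0.71 and Fdft1 with Insig1 at 0.64. Sqle with Insig1 was the lowest, and Hmgcs1 with Lss was at -0.54. These correlations describe arrays that share groups and array-wide shifts, and they carry no test. Sqle was the least like the rest, at 0.19 with Dhcr7 over 12 arrays.

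Of 17030 other genes, those whose pattern over the 12 arrays was most like the mean of the 7 were Cnih4, Rab5c, Arid1b, Dnajc5 and Trim26, with Pearson r from 0.98 to 0.99. A total of 1833 genes reached an r of 0.9, so this pattern is common on these arrays. Over the 8 other arrays the nearest were Herc3, Pgam1, Capza2, Nipal1 and Trim26, with r from 0.98 to 0.99, and 199 genes reached 0.9. Trim26 was in both sets. Over those 8 arrays the mean of the 7 sterol genes ran from -0.34 in wild-type DSS 2 to 0.46 in Parp1-/- DSS 1 and 0.45 in wild-type DSS 3, so its extremes did not separate the groups.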

How the data were processed

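Affymetrix arrays measured biotin-labelled total RNA of 12 colons, per the labels' protocols. The deposited table held log2 values (base assumed) of 31693 probe sets, from -4.83 to 5.47, centred per probe set, as the values show. The authors' software, background correction, normalization and the array's genome build remain not given in the sources used here. Scale and direction thus stay unstated. Column medians ran from -0.044 to 0.10. Probe sets were named from GEO's platform annotation: 22586 had 1 symbol, 1756 several and 7351 none, and 22406 of the first had an entrez ID in a RefSeq table. Probe sets of a gene were averaged (21314 genes).

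The 4 groups were fitted on all 12 arrays in 1 model with limma 3.58.1 in R 4.3.3, with Benjamini-Hochberg adjustment over all genes and calls at an adjusted p under 0.05. No pair of arrays held identical values. On simulated data of 21314 genes for wild-type DSS against water, log2 changes of 1.5 and 3 were called in 66% and 95% of 100 genes each. The simulated noise was independent for each gene and array and held no array-wide shift. These shares therefore need not hold for the measured arrays. The genes and lists were chosen with earlier results of these data known. Of each pathway list the text names up to 4 called genes of largest difference, or the 2 of smallest p. Lists held 55 genes, of which 45 were measured; the rest were not analysed here. The most similar genes leave out predicted models, clones, small RNA genes and receptors of smell. Python 3.11.15 drew the figures.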

Additional observations from a re-analysis of the deposited data

Results flagged for a closer look

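Hmgcs1 stands out because its response to DSS differed between the genotypes by a test of the difference itself, at -2.65 ± 0.62 (SE, 3 mice a group; adjusted p = 0.0497, limma). Its DSS difference was 2.24 in wild type and -0.41 in Parp1-/- mice. The 3 wild-type water arrays, which stand apart from the rest in housekeeping, colonocyte and receptor genes, enter this contrast, and their part in it was not tested. The call was lost in 14 of 18 alternatives, among them each fit that leaves out 1 array of any group, except that without wild-type DSS 1.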

How the results depend on the processing

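The alternatives were quantile normalization, array medians set to 0, values relative to the housekeeping mean, every probe set on its own, trend and robust options, array weights (whose estimate stopped before it converged), only the groups compared, the receptor median as a covariate, an adjusted p under 0.01, a 1.5-fold minimum, leaving out each array in turn and leaving out the 4 arrays that stand apart. Those for the other pathway genes were chosen after seeing the data. Of the differences recomputed, 1414 kept their direction and side of the threshold, 154 lost and 53 gained a call, and 68 changed sign. The cause was not tested.

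Of the 7 genes, DSS against water in wild type called 3 and after quantile normalization or with only the groups compared 0, with the covariate 1 (Srebf2, lower), and leaving out single arrays 2 to 5. Parp1-/- against wild type in water called 4, relative to the housekeeping mean 2, with the covariate 0, and leaving out single arrays 3 to 6. Parp1-/- against wild type in DSS called 0, and with array weights 5. Of all genes that weighted fit called 3516 higher and 2668 lower, against 0 without weights. The difference of the DSS responses called 1, and 0 after quantile normalization, by single probe sets, with trend and robust options, with the covariate or at an adjusted p under 0.01. It called 3 with array weights and 0 to 3 without single arrays.

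Of the 45 other pathway genes, DSS against water in wild type called 5. It called 0 after quantile normalization, with only the groups compared or at an adjusted p under 0.01, 22 relative to the housekeeping mean (21 lower), 14 with array weights, 3 with the covariate (2 lower) and 0 to 17 without single arrays. In Parp1-/- mice array weights called 4 (3 lower), against 0. Between genotypes in water the count was 18, and 20 relative to the housekeeping mean (19 lower), 9 after quantile normalization, 1 (lower) with the covariate, 5 at an adjusted p under 0.01 and 7 to 25 without single arrays. Between genotypes in DSS it was 0, and 17 with array weights. For the difference of the DSS responses it was 0, and 7 relative to the housekeeping mean, 12 with array weights, 1 with the covariate and 0 to 8 without single arrays. In each comparison array weights also called more of all genes than the fit without weights. Leaving out wild-type DSS 1 called more of all genes than all arrays did, except between genotypes in DSS, where both called 0.

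Values that changed sign were as follows. After quantile normalization Sqle was at -0.21 between genotypes in DSS, and Lss at 0.020 and Srebf2 at 0.12 in the difference of responses. Relative to the housekeeping mean, DSS in wild type gave -0.95 for Sqle, -0.47 for Lss, -0.65 for Srebf2, -0.31 for Dhcr7, -0.53 for Npc1l1 and -0.21 for Gramd1b, and DSS in Parp1-/- mice gave 0.023 for Insig1. The genotypes in water gave -0.85 for Sqle, -0.72 for Lss, -0.22 for Srebf2, -0.43 for Dhcr7, -0.042 for Cyp51, -0.29 for Gramd1b, -0.17 for Mbtps2, -0.26 for Rnf139, -0.16 for Ggps1 and -0.29 for Pdss2, and in DSS -0.093 for Sqle. The difference of responses gave 0.76 for Sqle, 0.84 for Lss, 0.88 for Srebf2, 0.57 for Dhcr7, 0.049 for Lrp1, 0.42 for Gramd1b, 0.26 for Mbtps2 and 0.20 for Pdss2. That scale called 492 genes higher and 14433 lower for DSS in wild type and 502 and 16159 between genotypes in water, against 1894 and 887 and 3813 and 2912. For the difference of responses it made 98.8% of calls higher, against 8.49%. Quantile normalization called 71 and 14 of all genes for DSS in Parp1-/- mice, against 2 and 0, and 0 for the difference of responses, where 2073 had an unadjusted p under 0.05 in limma. The housekeeping scale called 19 and 2 for DSS in Parp1-/- mice. On that scale the median of all genes moved to -1.13, -1.53 and 1.23 for DSS in wild type, the genotypes in water and the difference of responses.

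With the covariate, DSS in wild type gave -0.60 for Sqle, -0.0056 for Lss and -1.07 for Srebf2, and DSS in Parp1-/- mice 0.052 for Insig1. The genotypes in water gave -0.62 for Sqle, -0.28 for Lss, -1.28 for Srebf2, -0.17 for Msmo1, -0.22 for Lrp1, -0.35 for Lipa, -0.26 for Stard4, -0.11 for Gramd1b, -0.11 for Mbtps1, -0.14 for Mbtps2, -0.42 for Rnf139, -0.15 for Cyp27a1 and -0.71 for Ggps1. In DSS they gave -0.074 for Hmgcs1 and -0.22 for Sqle, and the difference of responses 0.40 for Sqle, 0.34 for Lss, 1.40 for Srebf2, 0.12 for Lrp1, 0.0985 for Gramd1b, 0.058 for Mbtps1 and 0.036 for Mbtps2. Sqle between genotypes in DSS was at -0.065 with array weights and at -0.15 without the 4 arrays.

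Leaving out single arrays, DSS in wild type ran from -0.43 to 0.64 for Sqle and from -0.24 to 1.12 for Srebf2. DSS in Parp1-/- mice ran from -0.23 to 0.018 for Insig1, from -0.038 to 0.27 for Srebf2 and from -0.039 to 0.32 for Dhcr7. Sqle between genotypes in DSS ran from -0.15 to 0.44. The difference of responses ran from -0.94 to 0.13 for Sqle, from -0.56 to 0.055 for Lss and from -0.99 to 0.37 for Srebf2. Leaving out the 4 arrays was not run where wild-type water is compared, since no array of that group remains, nor was a fit of only the groups compared for the difference of responses, which needs all 4. No paired analysis was possible because the labels give the groups no shared replicate numbers.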
